A study of Mus musculus with 18 samples.

Results

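Fatty acid beta-oxidation and ketone body synthesis were followed through 31 genes in the livers of mice that lack lysosomal acid lipase. The genes were chosen by symbol from a list of enzymes and transferases of these pathways, with the coactivator Ppargc1a, and all 31 of 31 were found among the 35441 genes of the deposited count table. All 31 passed the filter on low counts, which left 14533 genes. The members lie on 14 chromosomes, with at most 5 on any. The 6 groups held 3 male mice each. WT mice were untreated. KO mice were untreated Lipa-/- mice, in which exon 4 of Lipa is deleted through a CMV-driven Cre on a C57/BL6N background. KOT mice were Lipa-/- mice injected as young adults through the tail vein with rAAV8.hAAT.LIPA, an adeno-associated virus that carries tagged human LIPA cDNA behind the liver-specific human alpha-1 antitrypsin promoter. The times are 12 and 34 weeks after injection, which the labels call 3 and 8 months, and each mouse gave 1 liver. Most untreated Lipa-/- mice of the long follow-up were killed earlier on reaching humane endpoints, so not all 3 KO livers of the 34-week group can have been taken at 34 weeks. Which ones were taken earlier, and when, is not given in the sources used here, and these KO livers are called the 34-week group by their label. KO and KOT mice share the Lipa deletion, also in cells that the vector promoter does not serve.

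Beta-oxidation shortens fatty acids by a pair of carbons at a time. Long-chain acids are activated to acyl-CoA, moved into mitochondria as carnitine esters, and passed through a cycle of dehydrogenation, hydration, dehydrogenation and thiolysis, with the electrons handed to the electron transfer flavoprotein. Peroxisomes carry out a parallel cycle on very long and branched chains, and hepatocytes turn the acetyl-CoA of fasting oxidation into the ketone bodies acetoacetate and beta-hydroxybutyrate. PPARalpha, a nuclear receptor bound by fatty acids, is the best known activator of these genes in liver.

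Libraries held 17527848 to 25833134 reads assigned to genes. Lipa stood at 202, 267 and 241 CPM in WT, 16.7, 33.4 and 24.3 CPM in KO and up to 37.0 CPM in KOT mice at 12 weeks, and at 308, 283 and 323, 18.2, 19.7 and 19.0 and 29.1, 31.2 and 30.3 CPM in these groups at 34 weeks, so every mouse matched its label. It fell in KO liver, with log2 fold changes of -3.25 at 12 weeks and -4.01 at 34 weeks against WT, and hLIPA was read at 1577, 907 and 2631 CPM in the KOT mice at 12 weeks and 1316, 2746 and 523 CPM at 34 weeks. The vector transcript was at 0 in the 6 KO mice and at most 0.906 CPM in WT. CPM are reads of a gene relative to all reads of its library, with library sizes scaled by the trimmed mean of M values (TMM). The scaling factors were 0.587, 0.759 and 0.627 in the KOT mice at 12 weeks and 1.69, 1.42 and 1.37 in the KO mice at 34 weeks, so levels depend on the scaling, and without TMM the median of all genes tested shifted by up to -0.87 on the log2 scale, in KOT against KO at 12 weeks. Libraries also differed in how reads spread over short and long transcripts. Lengths here are the effective transcript lengths of the authors' quantification, averaged over the mice. Genes with a mean effective length under 1000 bases took 53.3, 41.5 and 49.8% of reads in KOT mice 10, 11 and 12 at 12 weeks. WT mice 1, 2 and 3 of that time had 39.6, 38.8 and 31.9%. WT mouse 1 at 34 weeks had 41.0%, against 27.6% and 28.6% in WT mice 2 and 3. The part of this spread in the results below was not tested. An alternative fit removed the trend on transcript length from each library.

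**Figure D1:**
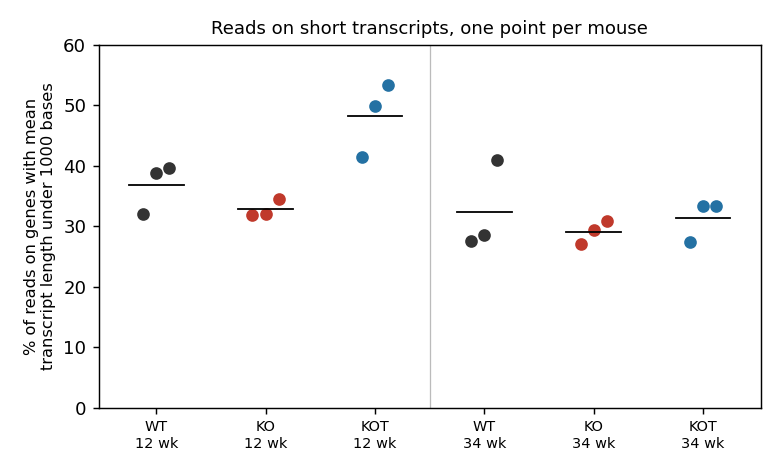
Share of reads on genes with a mean effective transcript length under 1000 bases (percent, vertical axis) for each of 18 mice, in 6 groups of 3, with bars at the group means. The 3 KOT mice at 12 weeks have the 3 highest shares, and WT mouse 1 at 34 weeks lies above the other WT mice of that time.

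RefSeq promoter windows, 250 bases before to 50 bases after a gene start on build GRCm38.p6, were matched to 27 of the 31 members by symbol. The hexamer AGGTCA, the unit to which nuclear receptors such as PPARalpha bind, was searched on both strands. It was found in the windows of 5 of the 27 matched members (18.5%), Acadm, Acadvl, Cpt1a, Echs1 and Scp2, and in 16.3% of all 32851 windows. Here and below a member counts once if any of its windows holds the motif, with 30 windows for the 27 members. All windows are counted singly, so the shares are not strictly alike. A pair of AGGTCA copies with 1 base between them was found in 0 member windows and in 0.0396% of all windows. The windows of Scp2, the member with the highest level in WT liver, and of Cpt1a, whose test was not passed in KO liver, are shown with AGGTCA or its reverse complement in capitals:
Scp2 (chr4:108118498-108118797, minus strand): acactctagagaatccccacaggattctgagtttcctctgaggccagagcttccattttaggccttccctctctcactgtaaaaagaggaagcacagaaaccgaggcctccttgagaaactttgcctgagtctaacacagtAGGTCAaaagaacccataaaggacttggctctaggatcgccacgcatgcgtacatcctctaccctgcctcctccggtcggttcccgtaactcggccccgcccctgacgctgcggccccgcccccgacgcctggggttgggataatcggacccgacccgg
Cpt1a (chr19:3323051-3323350, plus strand): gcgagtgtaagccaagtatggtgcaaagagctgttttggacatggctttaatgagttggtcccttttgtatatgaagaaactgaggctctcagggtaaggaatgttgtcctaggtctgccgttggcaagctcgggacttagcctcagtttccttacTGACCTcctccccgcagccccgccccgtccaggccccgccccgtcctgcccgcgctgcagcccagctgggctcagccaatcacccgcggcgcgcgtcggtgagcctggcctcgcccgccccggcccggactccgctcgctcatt
Hadha and Hadhb, the subunits of the mitochondrial trifunctional protein, start 273 bases apart on opposite strands, so their windows share 228 bases. That shared stretch stands in capitals in the Hadhb window:
Hadhb (chr5:30155003-30155302, plus strand): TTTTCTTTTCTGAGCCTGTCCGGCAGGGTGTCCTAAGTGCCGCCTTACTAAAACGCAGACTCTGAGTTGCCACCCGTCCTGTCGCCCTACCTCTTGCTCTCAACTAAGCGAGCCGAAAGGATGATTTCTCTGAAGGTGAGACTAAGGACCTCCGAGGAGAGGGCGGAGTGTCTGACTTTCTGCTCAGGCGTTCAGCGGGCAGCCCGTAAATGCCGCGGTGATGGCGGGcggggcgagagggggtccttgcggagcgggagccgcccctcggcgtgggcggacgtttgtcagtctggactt
Acaa1a and Acaa1b are near-identical peroxisomal thiolase genes whose starts lie 182581 bases apart on chromosome 9 of GRCm39. Their windows are shown because the pair gave unequal values below, with CCAAT or its reverse complement, held by 37.4% of all windows and by 14 of the 27 matched members, in capitals, where copies on opposite strands may overlap:
Acaa1a (chr9:119341044-119341343, plus strand): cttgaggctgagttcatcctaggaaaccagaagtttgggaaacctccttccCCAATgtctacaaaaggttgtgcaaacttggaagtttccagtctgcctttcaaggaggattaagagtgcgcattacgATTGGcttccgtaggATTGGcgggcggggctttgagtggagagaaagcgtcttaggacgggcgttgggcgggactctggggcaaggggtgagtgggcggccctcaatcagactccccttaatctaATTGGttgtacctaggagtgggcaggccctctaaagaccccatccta
Acaa1b (chr9:119157044-119157343, minus strand): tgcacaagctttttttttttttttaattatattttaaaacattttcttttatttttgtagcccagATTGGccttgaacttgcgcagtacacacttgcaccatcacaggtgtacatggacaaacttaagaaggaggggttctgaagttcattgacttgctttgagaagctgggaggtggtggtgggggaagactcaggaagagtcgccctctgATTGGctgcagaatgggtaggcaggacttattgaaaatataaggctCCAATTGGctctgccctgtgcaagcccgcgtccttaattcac

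The KO liver had less mRNA of nearly the whole pathway. At 12 weeks 25 of the 31 genes fell and 0 rose against WT, where 16.3% of all genes tested fell and 22.9% rose. At 34 weeks 28 fell and 0 rose, with 23.5% of all genes lower and 23.8% higher. The median log2 fold change of the members was -1.09 at 12 weeks and -2.07 at 34 weeks, beside 0.02 and -0.03 for all genes tested. A gene fell or rose when the quasi-likelihood test of edgeR gave an adjusted p under 0.05 over all genes tested. With a fall of over 2-fold also asked for, 21 members were called at 12 weeks and 28 at 34 weeks, where 9.06% and 15.7% of all genes were. The 3 KO mice lay below the 3 WT mice without overlap for 29 members at 12 weeks and 28 at 34 weeks, as they did for 24.1% and 29.8% of all genes. In bulk liver, fewer hepatocytes and less RNA per hepatocyte cannot be told apart. Without TMM scaling the counts of fallen members were 19 and 28, where 941 and 1539 of the 14533 genes fell. With limma on log2(TPM + 1) they were 16 and 27, where 801 and 1367 genes fell. Of the members that fell by edgeR at 12 weeks, 9 did not pass by limma. With the length trend removed 27 and 30 members fell, as Echs1 (-0.91, adjusted p = 0.0231) and Etfb (-0.67, adjusted p = 0.00468) passed at 12 weeks and Cpt1a and Acox2 at 34 weeks. DESeq2 called 26 and 30 lower, where it called 2530 and 3315 of all genes lower. The fit without the length trend called 3118 and 4077 of all genes lower.

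**Figure D2:**
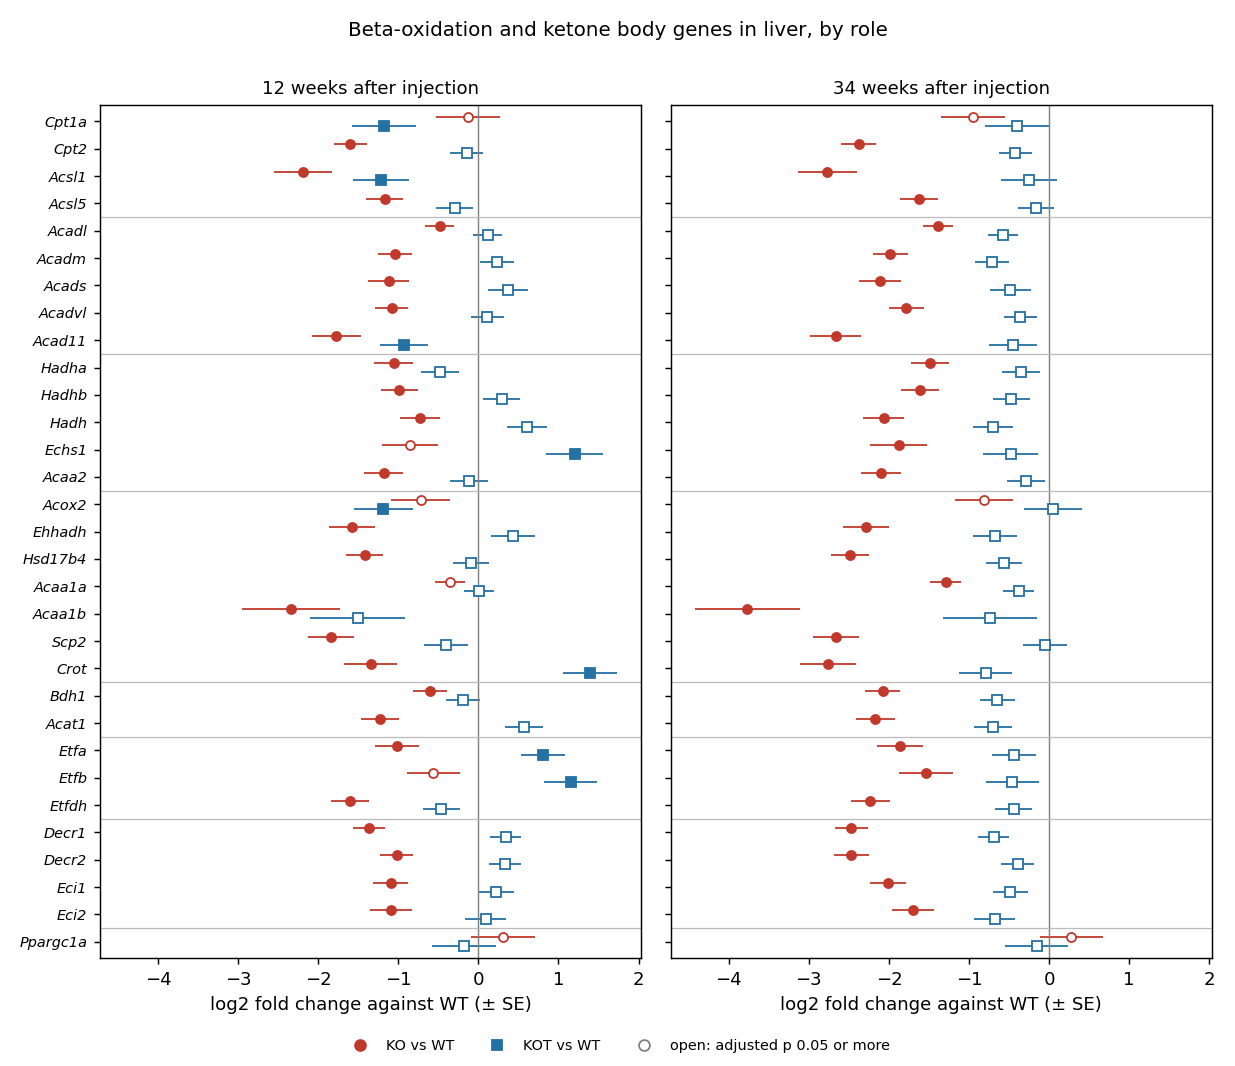
Log2 fold change against WT (horizontal axis, ± SE of the fit, 3 mice per group) for each of the 31 genes in rows ordered by role, at 12 weeks (left) and 34 weeks (right). Circles are KO, squares KOT, and filled symbols have an adjusted p under 0.05. Nearly all KO circles lie left of 0 and further left at 34 weeks, while KOT squares lie on both sides of 0 at 12 weeks and just left of it at 34 weeks.

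Among the genes of activation and carnitine transfer, Acsl1, Acsl5 and Cpt2 fell at both times and Cpt1a did not pass the edgeR test. Acsl1, a main long-chain acyl-CoA synthetase of liver, stood at 711, 588 and 900.5 CPM in the WT mice and 189, 151 and 142 CPM in the KO mice at 12 weeks. At 34 weeks it stood at 426, 765 and 924 CPM in WT and 83.8, 91.7 and 135 CPM in KO mice. The groups did not overlap at either time, and the log2 fold changes were -2.19 ± 0.36 (SE, adjusted p = 0.000162) and -2.77 ± 0.37 (SE, adjusted p = 1.53e-05). Cpt2, which turns acylcarnitine back into acyl-CoA inside mitochondria, was read at 103, 125 and 129.6 CPM in WT and 42.2, 40.9 and 34.9 CPM in KO mice at 12 weeks. At 34 weeks its values were 130.4, 138 and 152 CPM in WT and 21.8, 26.6 and 32.6 CPM in KO. KO mice thus had 33.1% and 19.2% of the WT level of Cpt2, with adjusted p of 1.72e-05 and 3.6e-07. Acsl5, another long-chain synthetase, had log2 fold changes of -1.17 ± 0.23 (SE, adjusted p = 0.000735) and -1.62 ± 0.23 (SE, adjusted p = 2.96e-05). Cpt1a, the outer membrane carnitine palmitoyltransferase that controls entry of long chains, did not pass by edgeR. Its values were 93.2, 98.5 and 189 CPM in WT and 123, 149 and 74.6 CPM in KO mice at 12 weeks, and 114, 278 and 301 CPM and 119.5, 131 and 108 CPM at 34 weeks. The groups overlapped at both times, and the log2 fold changes were -0.13 ± 0.40 (SE, adjusted p = 0.821) and -0.95 ± 0.40 (SE, adjusted p = 0.0604). At 34 weeks DESeq2 gave Cpt1a -0.92, adjusted p = 0.049 and the fit without the length trend -1.16, adjusted p = 0.00627, both past the threshold. The overlap at 34 weeks came from WT mouse 1, the WT mouse with the high share of short transcripts.

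All 5 acyl-CoA dehydrogenases of the list fell at both times by edgeR on TMM-scaled counts. Acadm, the medium-chain enzyme, stood at 268, 336 and 339 CPM in WT and 119, 169 and 169.8 CPM in KO mice at 12 weeks. At 34 weeks the WT values were 457, 384 and 424 CPM and the KO values 91.6, 101 and 127 CPM. Every KO mouse lay below every WT mouse, with log2 fold changes of -1.04 ± 0.21 (SE, adjusted p = 0.000954) and -1.98 ± 0.22 (SE, adjusted p = 2.05e-06). Acad11, a dehydrogenase of the same family, had the largest fall of the 5, by 1.78 and 2.66 on the log2 scale. Acadvl and Acads, the very long-chain and short-chain enzymes, fell by 1.08 and 1.12 at 12 weeks and by 1.78 and 2.11 at 34 weeks. Acadl, the long-chain enzyme, had the smallest fall at 12 weeks, -0.48 ± 0.18 (SE, adjusted p = 0.0452), from 178, 214 and 209.7 CPM in WT to 126, 160.2 and 145 CPM in KO mice. In deposited TPM Acadl was level at 12 weeks, at 103 ± 16.7 in WT and 101 ± 14.4 in KO mice (SD, n = 3), with overlap. Its log2 fold change at 34 weeks was -1.39 ± 0.18 (SE, adjusted p = 1.4e-05).

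The 5 genes of mitochondrial hydration, dehydrogenation and thiolysis all fell at 34 weeks, and 4 of them at 12 weeks. Acaa2, the thiolase that ends the mitochondrial cycle, stood at 826, 1002 and 862 CPM in WT and 379, 405 and 401 CPM in KO mice at 12 weeks, and at 1079, 823 and 883 and 183, 197 and 271 CPM at 34 weeks. Its groups did not overlap, and the log2 fold changes were -1.18 ± 0.24 (SE, adjusted p = 0.000933) and -2.10 ± 0.25 (SE, adjusted p = 4.11e-06). In KO against WT, Hadha and Hadhb, whose promoter windows overlap, moved by like amounts. Their log2 fold changes were -1.06 and -0.99 at 12 weeks and -1.49 and -1.61 at 34 weeks, each with an SE of 0.23 to 0.24. In KOT mice at 12 weeks they parted without overlap with WT. Hadha stood at 141, 222 and 263 CPM, below the WT values of 265, 275 and 331 CPM. Hadhb stood at 238, 243 and 256 CPM, above the WT values of 182, 219 and 200 CPM. Neither passed by edgeR, and DESeq2 called Hadha lower (-0.61, adjusted p = 0.043). In KO mice Hadh, the dehydrogenase for shorter chains, went from -0.73 to -2.07. In deposited TPM the KO and WT mice at 12 weeks overlapped for Hadhb, Hadh and Echs1. Echs1, the short-chain enoyl-CoA hydratase, did not pass at 12 weeks at -0.86 ± 0.35 (SE, adjusted p = 0.061), although its KO values of 122, 206 and 202 CPM lay below the WT values of 340.0, 362 and 259.5 CPM. It passed at 34 weeks at -1.88 ± 0.36 (SE, adjusted p = 0.000394).

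The 4 auxiliary enzymes that let unsaturated chains enter the cycle fell at both times. Decr1 and Decr2 reduce 2,4-dienoyl-CoA in mitochondria and peroxisomes, and Eci1 and Eci2 shift double bonds. Decr2 was read at 146, 167 and 161 CPM in WT and 81.0, 92.3 and 60.9 CPM in KO mice at 12 weeks, and at 223, 188 and 229 CPM and 34.3, 40.0 and 41.4 CPM at 34 weeks. The 3 KO values at 34 weeks lay within 34.3 to 41.4 CPM, far below any WT mouse. Its log2 fold changes were -1.02 ± 0.21 (SE, adjusted p = 0.000922) and -2.47 ± 0.22 (SE, adjusted p = 2.68e-07). Those of Decr1 were -1.36 ± 0.20 (SE, adjusted p = 4.65e-05) and -2.47 ± 0.21 (SE, adjusted p = 1.74e-07). Eci1 and Eci2 fell by 1.10 and 1.09 at 12 weeks and by 2.01 and 1.70 at 34 weeks on the log2 scale.

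The electron transfer flavoprotein takes the electrons of the acyl-CoA dehydrogenases and hands them, through Etfdh, to the respiratory chain. Etfdh stood at 211, 216 and 278 CPM in WT and 54.3, 102 and 75.7 CPM in KO mice at 12 weeks. At 34 weeks it stood at 252, 287 and 303 CPM in WT and 48.4, 60.5 and 70.6 CPM in KO. It fell without overlap, with log2 fold changes of -1.60 ± 0.23 (SE, adjusted p = 4.87e-05) and -2.23 ± 0.24 (SE, adjusted p = 1.64e-06). Of the subunits of the flavoprotein itself, Etfa fell at both times, by 1.02 and 1.86, and Etfb passed at 34 weeks. Etfb values were 409, 532 and 343 CPM in WT and 289, 266 and 315 CPM in KO mice at 12 weeks, -0.56 ± 0.33 (SE, adjusted p = 0.191), and 719.7, 297 and 313 and 114, 151 and 193 CPM at 34 weeks, -1.54 ± 0.34 (SE, adjusted p = 0.00121). For Etfb and Echs1 the highest WT value at 34 weeks was that of mouse 1, 719.7 and 523 CPM.

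The peroxisomal genes included the member with the highest level in WT liver and the one with the largest fall. Per transcript length, Scp2 had the highest level in WT liver at 12 weeks, 1928 ± 403 TPM (SD, n = 3), ahead of Acaa1b at 659 ± 228 and Etfb at 653 ± 87.5 TPM. The next in order, Acaa2, was at 599.8 ± 55.9 TPM, so that ranks after Scp2 are within the spread between mice. Scp2 encodes both a peroxisomal thiolase and sterol carrier protein. It stood at 4010.1, 3896 and 4909 CPM in WT and 1119, 1531 and 929 CPM in KO mice at 12 weeks, and at 3919.6, 4169 and 4622 CPM and 528, 647 and 835 CPM at 34 weeks. The groups were far apart, with log2 fold changes of -1.84 ± 0.28 (SE, adjusted p = 8.13e-05) and -2.66 ± 0.29 (SE, adjusted p = 2.04e-06). Acaa1b had the largest fall of the 31 members at both times. Its values were 922, 985 and 1372 CPM in WT and 247, 205 and 195 CPM in KO mice at 12 weeks, and 1121, 1817 and 2833 CPM and 102, 88.2 and 234 CPM at 34 weeks. KO mice kept 19.7% and then 7.35% of the WT level, with log2 fold changes of -2.34 ± 0.61 (SE, adjusted p = 0.0061) and -3.77 ± 0.65 (SE, adjusted p = 0.000168).

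Acaa1a, the close copy of Acaa1b, moved less. It stood at 168, 199.6 and 196 CPM in WT and 152, 161 and 128 CPM in KO mice at 12 weeks, -0.35 ± 0.19 (SE, adjusted p = 0.153), and its log2 fold change at 34 weeks was -1.29 ± 0.19 (SE, adjusted p = 3.94e-05). Acaa1b took 83.2 to 87.5% of the reads of the pair in WT mice at 12 weeks and 56.0 to 61.9% in KO mice. The shares at 34 weeks were 83.0 to 92.5% in WT and 47.7 to 70.4% in KO mice. The genes share much of their sequence, so how reads were divided between them is uncertain, and the share is that of the authors' quantification.

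The other peroxisomal genes were Ehhadh, Hsd17b4, Crot and Acox2. Ehhadh and Hsd17b4, the bifunctional enzymes of the middle steps, fell by 1.58 and 1.42 at 12 weeks and by 2.28 and 2.49 at 34 weeks. Crot, which forms the carnitine esters that leave peroxisomes, stood at 570.2, 674 and 570.4 CPM in WT and 140.0, 299 and 277 CPM in KO mice at 12 weeks, and its log2 fold changes were -1.34 ± 0.33 (SE, adjusted p = 0.00417) and -2.76 ± 0.35 (SE, adjusted p = 8.36e-06). Acox2, the branched-chain oxidase that also shortens bile acid side chains, did not pass at -0.72 ± 0.37 (SE, adjusted p = 0.132) and -0.81 ± 0.37 (SE, adjusted p = 0.0784). Its KO values of 52.8, 69.6 and 107 CPM at 34 weeks overlapped the WT values of 97.9, 141 and 164 CPM. DESeq2 gave it -0.85, adjusted p = 0.0374 at 34 weeks and the fit without the length trend -0.86, adjusted p = 0.0485.

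Both ketone body genes of the list fell by edgeR. Acat1, which joins acetyl-CoA into acetoacetyl-CoA and also splits it, stood at 521, 578 and 508 CPM in WT and 177, 262 and 247 CPM in KO mice at 12 weeks. At 34 weeks it stood at 727, 517 and 572 CPM in WT and 113, 124 and 167 CPM in KO, and the log2 fold changes were -1.23 ± 0.24 (SE, adjusted p = 0.000646) and -2.17 ± 0.25 (SE, adjusted p = 2.76e-06). Bdh1, which interconverts acetoacetate and beta-hydroxybutyrate, stood at 181, 208 and 238 CPM in WT and 109, 161 and 143 CPM in KO mice at 12 weeks, -0.60 ± 0.21 (SE, adjusted p = 0.0331). In deposited TPM Bdh1 overlapped between the groups at 12 weeks, at 108 ± 26.0 in WT and 94.6 ± 22.3 in KO mice (SD, n = 3). At 34 weeks its values were 339.6, 327 and 348 and 69.4, 83.0 and 88.0 CPM, -2.08 ± 0.22 (SE, adjusted p = 1.46e-06). Outside the list, Oxct1, the enzyme that extrahepatic tissues need to use ketone bodies and that hepatocytes hardly express, rose from 3.91, 6.17 and 2.57 CPM in WT to 55.3, 61.4 and 80.2 CPM in KO mice at 12 weeks. Its log2 fold changes were 3.96 ± 0.34 (SE, adjusted p = 2.69e-07) and 4.21 ± 0.34 (SE, adjusted p = 1.51e-07).

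Ppargc1a, a coactivator of mitochondrial genes and of gluconeogenesis, was near the lower end of measurement and did not pass the test. It stood at 4.34, 4.21 and 7.12 CPM in WT and 5.32, 9.86 and 4.24 CPM in KO mice at 12 weeks, 0.31 ± 0.40 (SE, adjusted p = 0.571). At 34 weeks the WT values were 4.84, 5.75 and 7.94 CPM and the KO values 6.78, 10.7 and 5.00 CPM, 0.27 ± 0.39 (SE, adjusted p = 0.594). By edgeR, Cpt1a, Acox2 and Ppargc1a passed at neither time, while DESeq2 and the fit without the length trend called Cpt1a and Acox2 lower at 34 weeks.

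**Figure D3:**
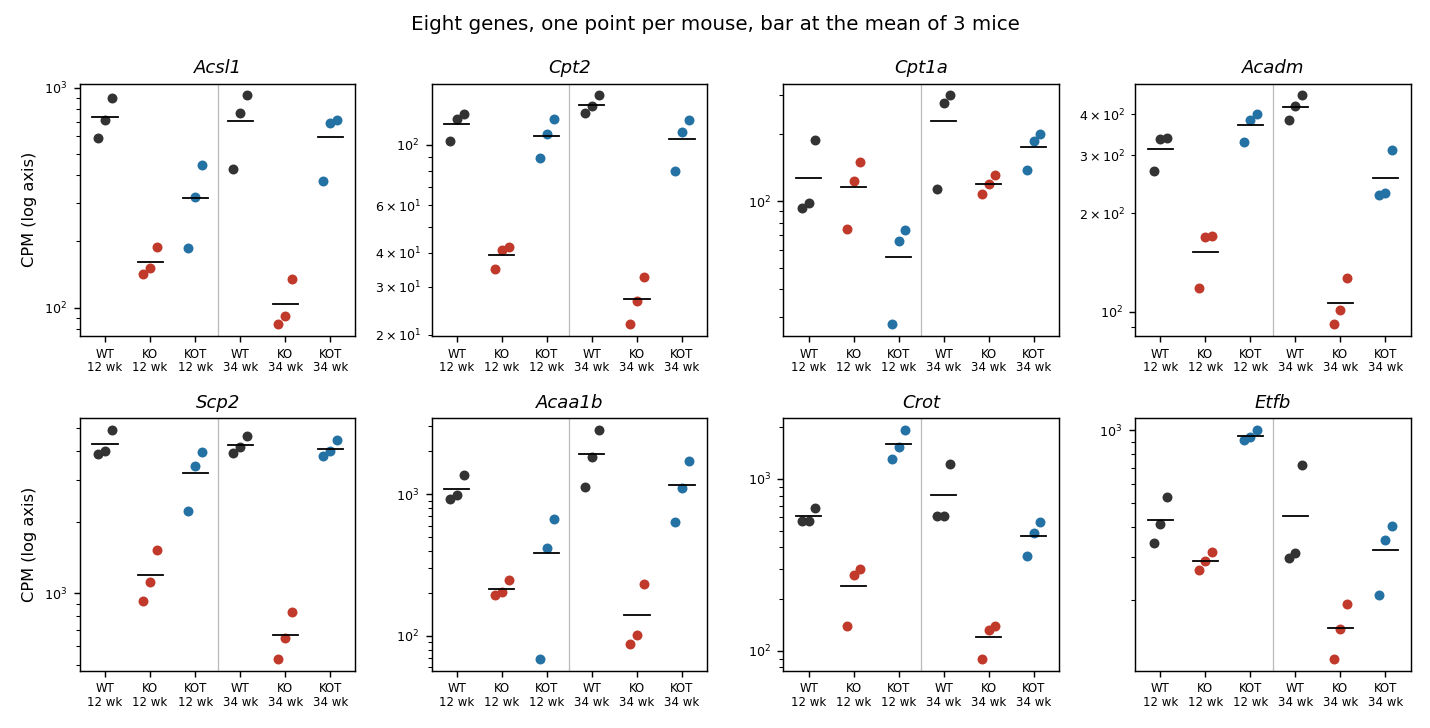
Levels of 8 genes in CPM (log vertical axis) for each of 18 mice, in 6 groups of 3, with bars at the group means. In Acsl1, Cpt2, Acadm, Scp2 and Acaa1b the KO mice lie below the WT mice at both times, in Cpt1a they overlap, and in Crot and Etfb the KOT mice at 12 weeks lie above all WT mice of that time.

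Treated livers at 34 weeks were close to WT but mostly on its lower side. No member passed the test in KOT against WT, in either direction, by edgeR, DESeq2 or limma, where 0.0895% of all genes fell and 0.131% rose. At an unadjusted p under 0.05, 11 members were lower and 0 higher, where 2.13% and 3.63% of all genes were. The log2 fold change was below 0 for 30 of 31 members, all but Acox2 at 0.05, and the median was -0.46, beside 0.00 for all genes tested. The 3 KOT mice lay below the 3 WT mice without overlap for 13 members and above them for 0, as they did for 4.11% and 4.78% of all genes. The members were measured in the same 6 livers, so their counts are not independent of each other. Decr1 was at 273, 199 and 225 CPM in WT and 118, 159.6 and 154 CPM in KOT mice, -0.69 ± 0.20 (SE, adjusted p = 0.351). Acadm was at 231, 312 and 227 CPM in KOT mice, below all WT mice, at -0.72 ± 0.21 (SE, adjusted p = 0.404). Bdh1 was at 183, 242 and 225 CPM, also below all WT mice, at -0.64 ± 0.21 (SE, adjusted p = 0.532). Scp2, at 4006, 4461 and 3791 CPM, overlapped the WT mice, with a log2 fold change of -0.05 ± 0.27 (SE, adjusted p = 0.994). A p over the threshold does not show that these levels equalled those of WT.

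Treated livers at 12 weeks differed from WT in both directions. In KOT against WT 4 members fell, where 17.5% of all genes fell, and 4 rose, where 19.4% did, and the median log2 fold change was 0.09. Acsl1, Cpt1a, Acad11 and Acox2 fell, and Crot, Echs1, Etfb and Etfa rose. These shares are not above the background. The 3 KOT mice lay without overlap below WT for 7 members and above for 10, beside 24.8% and 27.7% of all genes. Crot stood at 1929.7, 1523 and 1311 CPM in the KOT mice, above all WT mice of the same time, with a log2 fold change of 1.39 ± 0.33 (SE, adjusted p = 0.00752). Etfb stood at 1006, 909 and 940.0 CPM, 1.15 ± 0.33 (SE, adjusted p = 0.0154), and Echs1 at 1135, 513 and 565 CPM, 1.20 ± 0.35 (SE, adjusted p = 0.0162). Etfa had 0.80 ± 0.28 (SE, adjusted p = 0.032). All 3 KOT mice lay above every WT mouse of that time for these 4 genes. Acsl1 stood at 187, 318 and 444 CPM, below every WT mouse and with the lowest value inside the KO range, -1.21 ± 0.35 (SE, adjusted p = 0.016). Cpt1a stood at 27.8, 65.8 and 74.2 CPM, below every KO and WT mouse of that time, -1.18 ± 0.40 (SE, adjusted p = 0.0321). Acox2 stood at 26.1, 76.2 and 90.4 CPM, -1.19 ± 0.37 (SE, adjusted p = 0.0215), and Acad11 had -0.93 ± 0.30 (SE, adjusted p = 0.0254).

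Among the KOT mice at 12 weeks, mouse 10 held the lowest Cpt1a, Acsl1, Acox2 and Acaa1b values and also the highest share of short transcripts. Its Acaa1b level was 68.6 CPM, beside 418 and 666 CPM in mice 11 and 12, and Acaa1b did not pass by edgeR at -1.51 ± 0.60 (SE, adjusted p = 0.0569). Without KOT mouse 10, or without WT mouse 3 of that time, 0 members fell and 1 rose. With the trend on transcript length removed from each library, 3 members fell and 5 rose, and Cpt1a, Acad11 and Etfb no longer passed, at log2 fold changes of -0.74, -0.68 and 0.38 (adjusted p = 0.0784, 0.053 and 0.0881). Acaa1b (-1.64, adjusted p = 0.043), Decr1 (0.63, adjusted p = 0.0345) and Acat1 (0.88, adjusted p = 0.0192) newly passed in that fit. Of all 14533 genes 2185 fell and 3075 rose in that fit. Without TMM 9 members fell and 3 rose, where 4156 of all genes fell and 1392 rose. With limma on log2(TPM + 1), which changes the test, the unit and the scaling together, 12 fell and 0 rose. Of all genes 3473 fell and 616 rose by limma. Etfb has the shortest mean effective length of the members, 573 bases, and Cpt1a, at 4052 bases, the longest after Ppargc1a. The KOT mice at 12 weeks also read macrophage markers above WT, with 9 of 16 higher and a summed level of 968 ± 320.3 TPM beside 231 ± 88.6 in WT (SD, n = 3). The part of each in the result was not tested.

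Against untreated KO mice, most members were higher after treatment. At 34 weeks 28 members rose and 0 fell in KOT against KO, where 19.6% of all genes rose and 21.4% fell, and 26 rose over 2-fold, where 12.8% of all genes did. The median log2 fold change was 1.46. At an unadjusted p under 0.05 0 were lower, where 24.9% of all genes were. DESeq2 called 29 higher and 0 lower, where it called 2814 and 3266 of all genes. Acaa1b rose most, by 3.02 ± 0.63 (SE, adjusted p = 0.00104) on the log2 scale, to 1103, 1710.3 and 638 CPM. Scp2 and Acsl1 followed with 2.61 ± 0.29 (SE, adjusted p = 3.97e-06) and 2.52 ± 0.37 (SE, adjusted p = 4.69e-05). The smallest passing rises were those of Acadl and Acaa1a, 0.81 and 0.91. Cpt1a, Acox2 and Ppargc1a did not pass, at 0.56, adjusted p = 0.287, 0.86, adjusted p = 0.0704 and -0.43, adjusted p = 0.41. Acox2 passed by DESeq2 (0.84, adjusted p = 0.0472) and with the length trend removed (0.90, adjusted p = 0.0425).

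At 12 weeks 25 members rose and 1 fell in KOT against KO, where 23.8% of all genes rose and 30.4% fell. The median was 1.28, beside -0.19 for all genes tested, and 20 rose over 2-fold, where 16.2% of all genes did. Crot rose most, by 2.74 ± 0.35 (SE, adjusted p = 1.61e-05), followed by Echs1 at 2.06 ± 0.36 (SE, adjusted p = 0.00023) and Ehhadh at 2.01 ± 0.29 (SE, adjusted p = 4.29e-05). Cpt1a was the member that fell, at -1.05 ± 0.40 (SE, adjusted p = 0.0369). Acaa1b, which led the falls in KO, had 0.83 ± 0.59 (SE, adjusted p = 0.241). Without TMM 10 members rose and 4 fell, where 1110 of all genes rose, 8238 fell and their median was -1.05. With limma on log2(TPM + 1) 7 rose and 6 fell, where 750 of all genes rose, 8081 fell and that median was -0.67. With the length trend removed 26 rose, Bdh1 (0.49, adjusted p = 0.0333) now among them, and 0 fell. Of all genes 4166 rose and 4016 fell in that fit. The fall of Cpt1a did not pass without KO mouse 5, KO mouse 8 or KOT mouse 10, or with the length trend removed. KO mouse 5 at 12 weeks carries a number prefix of its own in the labels, whose meaning is not given.

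Summed deposited TPM, which TMM does not touch, placed the KOT mice at 12 weeks differently. Per transcript length, the 31 genes together held 7316 ± 1118 TPM in WT, 4253 ± 593 in KO and 5111 ± 1016 in KOT mice at 12 weeks (SD, n = 3). Genes with high levels weigh most in this sum. In the same order of groups, Scp2 alone held 1928, 786 and 792 TPM, Acaa1b 659, 177 and 153 TPM and Etfb 653, 580 and 906 TPM. At 34 weeks the sums were 10106 ± 2208, 3446 ± 440.0 and 8048 ± 572 TPM. The KO sums did not overlap the WT sums at either time. At 12 weeks the KOT sums, 4024 to 6038 TPM, lay below all WT sums and overlapped the KO sums, and at 34 weeks they lay above all KO sums and overlapped the WT sums. The peroxisomal genes alone gave 4679 ± 1626 TPM in WT, 1113 ± 209 in KO and 3695 ± 569 in KOT mice at 34 weeks. With 3 mice against 3, an exact permutation test of such a sum cannot go below p = 0.1.

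**Figure D4:**
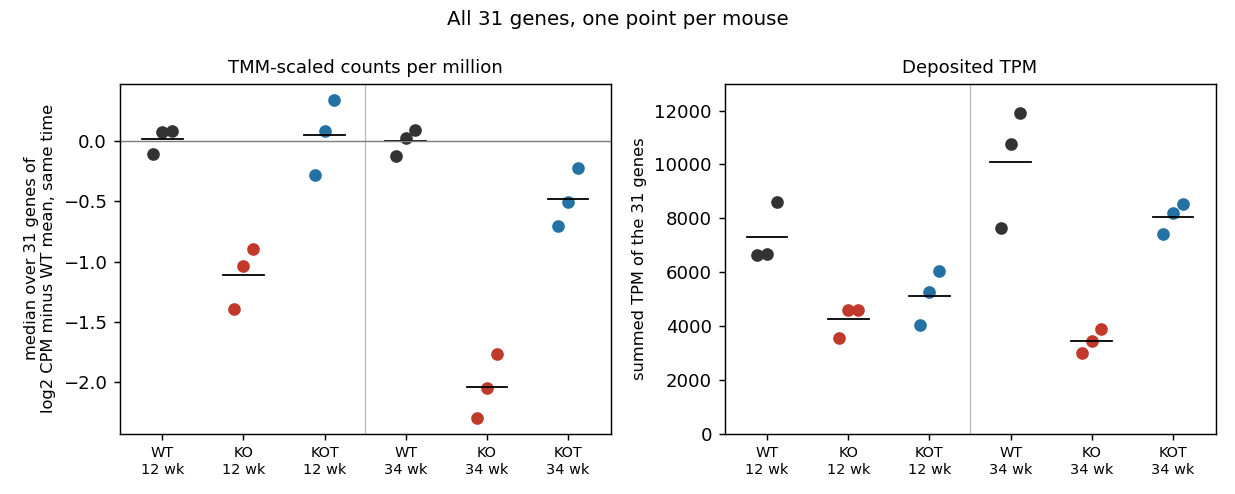
Left, median over the 31 genes of log2 CPM minus the WT mean of the same time, for each of 18 mice (vertical axis). Right, summed deposited TPM of the 31 genes. Bars are means of 3 mice. KO mice lie at -1.39 to -0.90 at 12 weeks and -2.29 to -1.76 at 34 weeks on the left, and KOT mice at 12 weeks lie near WT on the left and overlap the KO mice on the right.

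The times were compared within each genotype. The labels of the times start with different number prefixes, whose meaning is not given, so time and prefix cannot be told apart. KO mouse 5 at 12 weeks has a further prefix. For KO the later livers were in part taken before 34 weeks. Between 34 and 12 weeks 0 members changed in WT by edgeR, DESeq2 or limma, where 0.33% of all genes changed, and 4 members had an unadjusted p under 0.05, beside 7.8% of all genes. In KO 1 member changed, Decr2 at -1.02 ± 0.21 (SE, adjusted p = 0.036), where 0.523% of all genes changed. DESeq2 called 8 members in KO, for which no share of all genes is given here, and limma 0. An unadjusted p under 0.05 was found for 20, beside 15.6% of all genes. The median log2 fold change of the members in KO was -0.61, and 16 lay lower at 34 weeks without overlap, as 16% of all genes did. The test of whether the KO to WT difference itself changed with time passed for 0 members by edgeR, where 0.0619% of all genes passed. It passed for 7 members by DESeq2, 0 by limma and 2 with the length trend removed, for which no share of all genes is given here. An unadjusted p under 0.05 was found for 16, beside 9.48% of all genes. By edgeR, Bdh1 and Decr2 came closest, at -1.48 ± 0.30 (SE, adjusted p = 0.0739) and -1.45 ± 0.29 (SE, adjusted p = 0.0723).

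In KOT mice 13 members changed between the times, where 45.2% of all genes did. Crot, Echs1, Etfb, Etfa, Acat1, Ehhadh, Hadh and Decr1 were lower at 34 weeks, and Cpt1a, Acaa1b, Acox2, Acad11 and Acsl1 were higher. Crot went from 1929.7, 1523 and 1311 to 358, 483 and 564 CPM, -1.76 ± 0.34 (SE, adjusted p = 0.0016), and Cpt1a from 27.8, 65.8 and 74.2 to 201, 187 and 137 CPM, 1.65 ± 0.41 (SE, adjusted p = 0.00467). Neither gene had overlapping groups. The difference of KOT from WT changed with time for 8 members, where 19.6% of all genes passed. All 8 had a negative value, that is, a lower KOT to WT ratio at 34 weeks, and they were Crot, Echs1, Etfb, Hadh, Acat1, Etfa, Decr1 and Acadm. The 8 calls became 0 without WT mouse 1 or 3 at 12 weeks, without WT mouse 1 at 34 weeks or without KOT mouse 9 at 34 weeks, and 1 without KOT mouse 10 at 12 weeks.

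Other genes of the same pathways, from lists chosen with earlier results of these data known, also mostly fell in KO liver. Of 32 further oxidation and ketone body genes tested, 21 fell and 3 rose at 12 weeks, and 24 fell and 3 rose at 34 weeks, with medians of -0.97 and -1.78. Slc25a20, the carrier of acylcarnitine across the inner mitochondrial membrane, had -0.95 ± 0.23 (SE, adjusted p = 0.00329) and -2.16 ± 0.23 (SE, adjusted p = 1.9e-06). Slc22a5, the carnitine importer of the plasma membrane, had -0.56 ± 0.21 (SE, adjusted p = 0.042) and -1.51 ± 0.21 (SE, adjusted p = 2.05e-05). The list of PPARalpha and its targets had medians of -1.27 and -2.27, with 13 and then 18 of 24 genes lower and 0 higher. It shares genes, Slc25a20 among them, with the list before. In KOT against WT at 34 weeks the PPARalpha list had a median of -0.70, with 3 genes lower and 0 higher, where 0.0895% of all genes fell. The KOT mice lay below the WT mice without overlap for 12 of its 24 genes and above for 0, beside 4.11% and 4.78% of all genes.

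Ppara itself stood at 23.7, 13.7 and 30.6 CPM in WT and 10.8, 8.62 and 5.98 CPM in KO mice at 12 weeks, -1.42 ± 0.35 (SE, adjusted p = 0.00371). At 34 weeks it stood at 23.8, 34.5 and 34.8 CPM in WT, 9.05, 6.76 and 7.79 CPM in KO and 47.9, 32.2 and 17.2 CPM in KOT mice, and its log2 fold change in KO was -1.98 ± 0.35 (SE, adjusted p = 0.000202). The omega-hydroxylase Cyp4a14 ranged widely in WT, at 3.38, 4.35 and 62.6 CPM at 12 weeks and 143, 354 and 522 CPM at 34 weeks. In KOT mice at 34 weeks it stood at 4.76, 40.6 and 6.23 CPM, below every WT mouse of that time. In KO it stood at 0.284, 0.35 and 0.202 CPM and 0.189, 0.0773 and 0.0368 CPM, which is a handful of reads, so that the fall passed the test (adjusted p = 0.00394 and 9.66e-05) but its size is poorly set. Pdk4, the kinase that spares glucose carbon from oxidation, had -0.93 ± 0.44 (SE, adjusted p = 0.106) and -1.36 ± 0.44 (SE, adjusted p = 0.0165), and the fasting hormone Fgf21 0.60 ± 0.66 (SE, adjusted p = 0.507) and -1.27 ± 0.66 (SE, adjusted p = 0.126). Malonyl-CoA, the inhibitor of Cpt1a, is made by Acaca and Acacb and removed by Mlycd. In KO mice 1 of these 3 genes fell at 12 weeks and all 3 at 34 weeks. Acacb had -2.29 ± 0.48 (SE, adjusted p = 0.00122) and -2.97 ± 0.49 (SE, adjusted p = 0.000116), Acaca -0.46 ± 0.40 (SE, adjusted p = 0.388) and -1.03 ± 0.40 (SE, adjusted p = 0.0426), and Mlycd -0.64 ± 0.26 (SE, adjusted p = 0.0629) and -1.89 ± 0.27 (SE, adjusted p = 2.73e-05).

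Mitochondrial genes outside fatty acid oxidation fell by less at the median. Of 17 TCA cycle genes 9 fell at 12 weeks and 15 at 34 weeks, with 0 higher and medians of -0.74 and -1.51. Of 15 genes of mitochondrial import and the outer membrane 5 and 11 fell and 1 rose, with medians of -0.47 and -0.86. The difference between the lists was not tested.

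Markers of liver cell types moved in the same comparison. Of 18 hepatocyte markers 6 fell and 1 rose at 12 weeks and 14 fell and 2 rose at 34 weeks, with medians of -0.78 and -1.37 on TMM-scaled counts. Their summed deposited TPM, which TMM does not touch, was higher in KO mice, 107700.0 ± 5651 beside 69037 ± 7181 in WT at 12 weeks. A few genes with high levels weigh most in that sum. The values of 2 of these follow for 12 weeks in TMM-scaled CPM, another unit than the sum, so they do not give their part in it. Trf had 27308, 27220 and 27398 CPM in KO and 13955, 17318 and 14212 CPM in WT. Alb had 18409, 22454 and 38574 CPM in KO and 39578, 49068 and 48195 CPM in WT. Of 16 macrophage markers 14 rose and 1 fell at 12 weeks and 12 rose and 2 fell at 34 weeks, and their summed level at 12 weeks ranged from 4975 to 9487 TPM in KO and from 152 to 327 TPM in WT. The later ranges were 4983 to 9230.4 TPM in KO and 304 to 609 TPM in WT. Of 8 stellate cell and fibroblast markers 6 rose at 12 weeks and 7 at 34 weeks, and 1 fell at each time. Of 5 cholangiocyte markers 3 and then 5 rose. Of 8 T and B cell markers 3 rose at each time and 1 fell at 34 weeks, and of 6 endothelial markers 2 fell and 1 rose at each time. None of these markers was at 0 in all 3 mice of any group. The part of a changed cell makeup in the fall of the members was not tested.

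**Figure D5:**
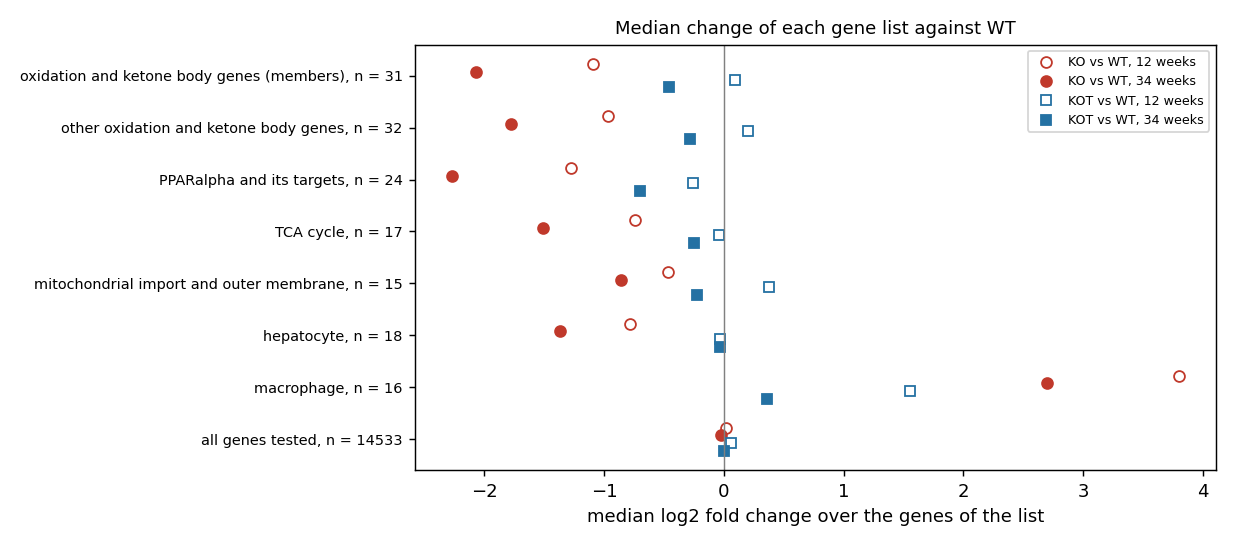
Median log2 fold change against WT (horizontal axis) over the genes of 7 lists and of all genes tested (rows, with the number tested) for KO (circles) and KOT (squares) at 12 weeks (open) and 34 weeks (filled). Of the lists drawn, the members, the other oxidation genes and the PPARalpha list lie furthest left in KO at 34 weeks, the TCA, import and hepatocyte lists lie between them and 0, and macrophage markers lie to the right.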

How the data were processed

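PolyA RNA of frozen livers was sequenced as paired-end reads. Per the study's methods, the authors quantified reads with Salmon on GRCm39 transcripts and summed them per gene with tximport, and the submitters' processing notes name R 4.3.0 and DESeq2 1.40.1. The deposited tables hold estimated counts, TPM and effective transcript lengths in bases per gene and mouse. The authors' own table of comparisons, with fold changes and p-values, was not used.

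Estimated counts were rounded and genes with over 100 reads summed over all 18 mice were kept. edgeR 4.0.16 fitted a quasi-likelihood model with 6 group means and TMM factors, and p-values were adjusted by Benjamini-Hochberg over all 14533 genes. Fits were tested on simulated data. The members and gene lists were chosen with earlier results of these data known. All 31 members are named, and from the other lists a set of single genes, of which some are not reported here, with Lipa and hLIPA. Alternatives were DESeq2 1.42.0 with length offsets, limma 3.58.1 on log2(TPM + 1), other scaling, filters, thresholds and fits, each mouse left out, and, added after seeing the data, a lowess trend on transcript length removed. Nothing says that mice came from separate litters or that libraries were prepared together, so p-values measure the spread between these mice. Promoter windows are those of RefSeq.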

Additional observations from a re-analysis of the deposited data

Results flagged for a closer look

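The difference of KOT from WT mice changed between 12 and 34 weeks for 8 members by the interaction test of edgeR, adjusted over all genes tested. Of all genes tested 19.6% passed, and with each mouse left out the count of members was 0 to 9. The log2 change of the KOT to WT ratio from 12 to 34 weeks was -2.18 for Crot, -1.68 for Echs1, -1.61 for Etfb, -1.30 for Hadh, -1.27 for Acat1, -1.24 for Etfa, -1.04 for Decr1 and -0.95 for Acadm, with adjusted p between 0.0237 (Crot) and 0.0387 (Etfa). In all 3 KOT mice at 12 weeks Crot, Echs1, Etfb, Etfa, Hadh and Acat1 lay above every WT mouse of that time. These are the libraries with the highest shares of reads on short transcripts, whose part in the result was not tested. With the length trend removed 10 members passed this test, for which no share of all genes was taken. Groups of 3 mice were not examined for single outlying mice.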

How the results depend on the processing

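The members were compared under other tools, scalings, filters, thresholds and fits, and with each mouse left out. Of 2790 log2 fold changes of members under the alternatives, 2607 kept their side of the threshold, 120 no longer passed and 50 newly passed. A further 13 changed sign where the main or the alternative value passed, and leaving out 1 mouse did so for 0 of 1116. Sign changes where neither value passed are counted among the 2607. In KOT vs WT at 12 weeks 14 members were below 0 in the main fit, 24 without TMM and 26 by limma.

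The medians moved under these alternatives: total counts without TMM, and limma on log2(TPM + 1), which changes the test, the unit and the scaling together. In that order, the member medians were -0.62 and -0.60 for KO vs WT at 12 weeks, -1.44 and -1.37 at 34 weeks, -0.31 and -0.48 for KOT vs WT at 12 weeks, 0.41 and 0.12 for KOT vs KO at 12 weeks, and 0.93 and 0.92 at 34 weeks. For KO vs WT at 12 weeks limma called 16 lower. For KOT vs WT at 12 weeks 9 were lower without TMM, limma called 12 lower and 0 higher, DESeq2 7 and 7, and an adjusted p under 0.01 left 0 and 1. Of all genes there, 4156 were lower without TMM, 3473 were lower and 616 higher by limma, and 2580 and 3273 by DESeq2. For KOT vs KO at 12 weeks 4 were lower and 10 higher without TMM and 6 and 7 by limma, and 0 were lower with only the groups compared, with the length trend removed or at an adjusted p under 0.01. The cause was not tested.

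By limma, Acaa1a turned to -0.66 in KOT vs WT at 12 weeks. In KOT vs KO at 12 weeks limma turned Acsl1 to -0.24, Acsl5 to -0.18, Acadl to -0.53, Acad11 to -0.11, Hadha to -0.62, Acaa2 to -0.05 (-0.0481), Acaa1a to -0.78, Scp2 to -0.05 (-0.0548) and Bdh1 to -0.66. Total counts turned Acadl to -0.26, Hadha to -0.27 and Acaa1a to -0.51. Sign changes where neither value passed are not listed.

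Between the times in KO, 8 members changed by DESeq2 and 0 with total counts, no filter on low counts, limma, only the groups compared or an adjusted p under 0.01. In KOT 8 changed with only the groups compared, 8 with a change over 2-fold also asked for and 7 at an adjusted p under 0.01. The interaction of KO and time gave 7 by DESeq2 and 2 with the length trend removed. That of KOT and time gave 2 with total counts, 2 by limma, 0 with only the groups compared and 0 at an adjusted p under 0.01. The counts of this paragraph are given without a share of all genes.

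With each mouse left out, KOT vs WT at 12 weeks gave 0 to 6 lower and 1 to 4 higher, and KOT vs KO at 12 weeks 0 to 1 lower. Members changed with time numbered 0 to 3 in KO (0 without mouse 5 or 8 at 12 weeks or mouse 4 or 5 at 34 weeks, 3 without mouse 6 at 34 weeks) and 7 to 12 in KOT (8 without mouse 10 at 12 weeks, 7 without mouse 9 at 34 weeks). The interaction of KO and time gave 0 to 1 (1 without KO mouse 9 at 12 weeks or mouse 6 at 34 weeks) and that of KOT and time 0 to 9 (5 without KOT mouse 11 at 34 weeks).

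Mouse numbers shared between the times did not pair the mice (correlations of deviations of 0.10, -0.36 and 0.59 in WT and -0.22 and -0.22 in KOT). With the replicate block 0 members changed with time in WT and 3 in KOT, where the block used 2 shared numbers. Groups of 3 mice limit what could be detected.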
